A study of Homo sapiens with 2 samples.

Results

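The genes described here encode the machinery of autophagy, the lysosome and the vacuolar ATPase, measured in DLD-1, a long-established line from a human colorectal adenocarcinoma. They were taken by a rule on gene symbols into which no value enters: ATG genes, ULK1 to ULK3, BECN1, the LC3 and GABARAP family, SQSTM1, TFEB, TFE3, LAMP1, LAMP2, the cathepsins and the subunits and accessory proteins of the vacuolar ATPase. In all, 70 of the 21448 probe sets of a whole-transcript array matched, 1 for each of 70 genes. Both cultures were DLD-1 cells transfected with an siRNA at 5 nmol/L by lipofection, 1 with a non-targeting negative control (siControl) and 1 with a single siRNA against YY1 (siYY1), and total RNA was taken after 3 days. The target, YY1, is a zinc finger protein that regulates transcription, and the study asked how gene expression differs once it is knocked down. With 1 array in each group, replicate errors and tests were not possible, and every difference compares a pair of arrays rather than the conditions. No probe set named here was annotated as YY1, so the knockdown was not checked on the arrays. A second siRNA of another sequence was not analysed here.

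Autophagy encloses cytoplasm in a double membrane, the autophagosome, which then fuses with a lysosome. The ULK kinase complex starts the process, a class III PI3-kinase complex marks the site, ATG9 and ATG2 proteins supply lipid, and a pair of conjugation systems attach small proteins of the ATG8 family (LC3 and GABARAP) to the growing membrane. Receptors such as SQSTM1 (p62) tether cargo to ATG8 proteins. In the lysosome, cathepsins digest protein at an acid pH that the vacuolar ATPase maintains: its V1 sector hydrolyses ATP in the cytosol and its V0 sector moves protons through the membrane. TFEB and TFE3 are transcription factors that drive many of these genes.

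Values are log2 expression after quantile normalization of the pair, and a difference is siYY1 minus siControl in log2 units. The scale was inferred from the range of the values. The comparison was limited to protein-coding genes with a value of at least 7.498 on either array, which is the median of the higher value over all named genes. Of the 70 members, 52 reached it. The epithelial genes EPCAM (16.29 and 16.47 in siControl and siYY1) and KRT8 (16.53 and 16.68) were bright. Of the 8 epithelial markers compared, 5 were below 0 and the median was -0.09. The intestinal transcription factor CDX2 was the lowest, at 13.07 and 12.31 (-0.76), followed by VIL1 at 7.54 and 7.03 (-0.51) and KRT19 at -0.40. VIL1 reached the minimum only on the siControl array, where it was higher. The part of these differences in the results was not tested. Below the brightness minimum were 3 of 11 epithelial and intestinal markers, CDX1, LGALS4 and GPA33. All 5 endothelial markers, 5 of 6 leukocyte markers and 5 of 6 fibroblast markers were below it as well. The exceptions were CD14, at 7.67 and 6.95, and COL1A2, at 8.62 and 8.84. The leukocyte marker PTPRC was at 4.96 and 4.98.

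None of the 52 members compared was at least 2-fold higher on the siYY1 array, where 7.92% of all 8747 genes compared were. At least 2-fold lower were 5 members, or 9.62%, beside 9.37% of all genes compared. These 5 were ATP6V1C2 in the V1 sector, the cathepsin CTSV, the receptor SQSTM1, the ULK complex subunit ATG13 and the lipid transfer protein ATG2A. The share of lower members was thus near the background. The background depends on the scaling: as deposited it was 6.13% higher and 12.2% lower, and with median centring 5.04% and 14.2%. At 1.5-fold, 4 members were higher (7.69%, beside 19.4% of all genes compared) and 11 were lower (21.2%, beside 21.8%). The 3 members just past 2-fold were ATG2A, ATG13 and SQSTM1, between -1.002 and -1.07. Just short of it were ATP6V1C1 at -0.96, GABARAP at 0.84 and ATG14 at 0.80.

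The median difference of the 52 members was -0.17, and that of all genes compared was -0.01. In all, 31 members were below 0 and 21 above, beside 4412 and 4332 of all 8747 genes compared. The number below 0 was 29 with loess scaling, 29 with a genomic span trend removed and 32 with median centring. Without the brightness minimum it was 38 of 70. The differences had an SD of 0.58 across members and 0.75 across all genes compared, and 71.2% of the members lay within 1.5-fold, beside 58.8% of all genes. The 10th percentile was -0.94 for the members and -0.97 for all genes compared. The 90th percentile was 0.54 for the members and 0.88 for all genes, so the distributions parted on the higher side. Whether this gap exceeds what other gene groups of this size show was not tested. The count of 5 lower members became 3 with a trend on genomic span removed, when SQSTM1 was at -0.98 and ATG2A at -0.90, and 6 in the values as deposited, when ATP6V1C1 was at -1.09.

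**Figure D1:**
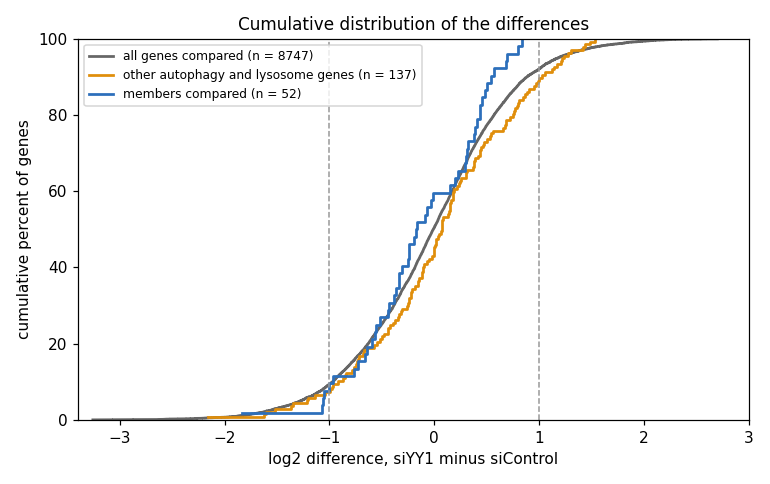
Cumulative percent of genes (y axis) by log2 difference, siYY1 minus siControl (x axis), for the 52 members compared, 137 other autophagy and lysosome genes and all 8747 genes compared; dashed lines mark 2-fold. The members' line ends at 0.84, short of the upper dashed line, while 5 members lie past the lower one.

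The ULK complex, which receives the signal to start autophagy, held members on both sides. ATG13, the adaptor that holds the complex together, was at 10.96 on the siControl array and 9.90 on the siYY1 array, a difference of -1.06 and 2.08-fold lower. As deposited, its values were 11.02 and 9.83. ATG101, which binds ATG13, was at 10.02 and 9.46, a difference of -0.55. The kinase ULK1 was at 8.57 and 9.00 and ULK3 at 8.13 and 8.28, differences of 0.43 and 0.15. ATG13 and its partner ATG101 were thus lower and both kinases bright enough to be compared were higher on the siYY1 array. RB1CC1 (FIP200), the large scaffold of the complex, is outside the symbol rule and was at 10.34 and 10.41, a difference of 0.07 that was -0.05 in the values as deposited. ULK2 was below the brightness minimum, at 5.10 and 5.97, a difference of 0.88 that was 1.03 in the values as deposited.

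The class III PI3-kinase complex had values on both sides of 0 once its other genes are counted. ATG14, the subunit that directs this complex to autophagy, was at 9.02 and 9.82, which is 1.74-fold higher at 0.80. BECN1, the scaffold it binds, was at 11.57 and 11.79, a difference of 0.22 that was 0.08 as deposited and 0.003 with median centring. Of the genes outside the symbol rule, the catalytic subunit PIK3C3 was at 8.88 and 9.74 (0.87) and its regulatory partner PIK3R4 at 9.60 and 10.39 (0.79). NRBF2, which binds ATG14 complexes, was at 8.74 and 7.95 (-0.79, or 1.72-fold lower), and UVRAG, which takes the place of ATG14 in another form of the complex, was at 8.14 on both arrays. Among the lipid supply genes, ATG2A, which bridges the endoplasmic reticulum and the growing membrane, was at 9.67 and 8.67. This is a difference of -1.002, at the edge of 2-fold, and its values as deposited were 9.73 and 8.63. Its paralog ATG2B was below the brightness minimum and differed by -0.04. ATG9A, a lipid scramblase of vesicles that seed the autophagosome, was at 11.98 and 11.97 (-0.01, and 0.02 with loess scaling), and the dim ATG9B differed by 0.09.

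The conjugation group had values on both sides of 0, with 6 of the 10 compared lower and 4 higher, a median of -0.22 and none past 2-fold. The highest was ATG12, the ubiquitin-like protein that is joined to ATG5, at 10.96 and 11.64, a difference of 0.68. ATG5 itself was at 10.18 and 10.57, a difference of 0.38. The ATG16L1 protein that binds this conjugate was at 8.41 and 8.05, a difference of -0.37, so the parts of a single complex did not share a direction. The E1-like enzyme ATG7 was at 9.47 and 8.96, a difference of -0.52. The E2-like enzyme ATG3, which loads ATG8 proteins onto lipid, was at 12.95 and 12.51, a difference of -0.43. ATG10, the E2-like enzyme for ATG12, differed by -0.07. The ATG4 proteases, which trim and release ATG8 proteins, split as well. ATG4C was the lowest of the group, at 8.80 and 8.13, a difference of -0.67, and ATG4A differed by -0.44. ATG4B and ATG4D were above 0, at 0.39 and 0.50. ATG16L2 was dim and differed by -0.12.

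All 4 members of the ATG8 family that were compared were higher on the siYY1 array, none by 2-fold, although GABARAPL1 was at -0.02 when the arrays were centred on their medians. GABARAP was at 13.60 and 14.43, a difference of 0.84 or 1.79-fold, which was the highest of the 52 members compared. It ranked 972nd from the highest of the 8747 genes. GABARAPL2 was at 9.88 and 10.37, a difference of 0.49. MAP1LC3B, the LC3 form used as the usual marker of autophagosomes, was at 10.69 and 10.99, a difference of 0.29. GABARAPL1 was at 12.76 and 12.96, a difference of 0.19. The 3 dim members were MAP1LC3B2 at 0.58, MAP1LC3C at 0.27 and MAP1LC3A at -0.05. MAP1LC3B2 is a near-identical copy of MAP1LC3B, so signal may be shared between their probe sets and both values are uncertain as single genes. GABARAPL3 had no named probe set and was not analysed here.

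SQSTM1, the receptor that binds ubiquitin on cargo and ATG8 proteins on the membrane, was 2.09-fold lower on the siYY1 array. Its values were 13.84 and 12.77, a difference of -1.07, and 13.92 and 12.70 as deposited. The 4 ATG8 family genes compared were on the other side of 0 in this scaling, with the limits given above. The other receptors for selective autophagy, from a list of 15 genes of which 11 were compared, included 5 above and 6 below 0 and none at 2-fold. The lowest was BNIP3L, a mitophagy receptor, at 14.58 and 13.59, a difference of -0.99. It was past 2-fold under the other scalings, at -1.14 as deposited, -1.22 with median centring and -1.02 with loess. The median of the list was -0.07.

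**Figure D2:**
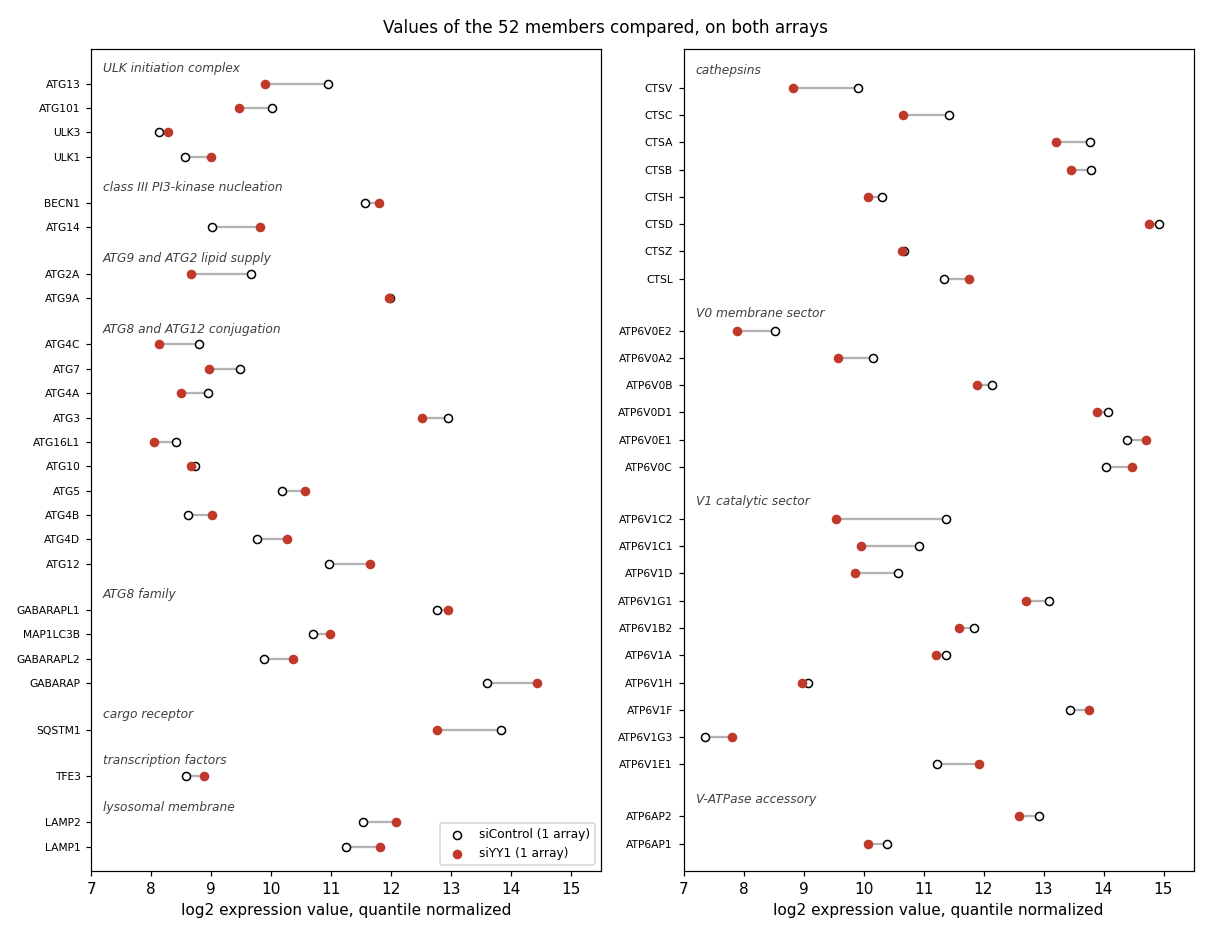
Log2 expression after quantile normalization (x axis) of the 52 members compared on the siControl array (open circles) and the siYY1 array (filled circles), 1 row a gene, grouped by role. ATP6V1C2 has the longest line, from 11.37 to 9.54, and the 4 ATG8 family genes have the siYY1 circle to the right in this scaling (GABARAPL1 was at -0.02 with median centring).

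TFE3 was at 8.58 and 8.88, a difference of 0.30. TFEB was dim on both arrays, at 3.41 and 3.73, so its level could not be compared. Genes under both factors often carry the CLEAR element, an E-box in a set context. Promoter windows from RefSeq (GRCh38.p14), which run from 250 bases before to 50 after a transcript start, were given for 56 of the 70 members, 68 windows in all. Not in the table were ATG4D, ATP6V0D2, ATP6V0E1, ATP6V1A, ATP6V1B2, ATP6V1C1, ATP6V1H, CTSB, CTSK, CTSO, CTSS, CTSW, LAMP2 and MAP1LC3A. The palindrome TCACGTGA, taken as the CLEAR core, was found in 5 member windows (7.35%) and in 0.98% of all 35116 windows. The E-box CACGTG, which lies inside that core, was found in 12 member windows (17.6%) and in 7.26% of all windows. Member windows were also richer in G and C, with a median of 64.8% against 58.7%, and the part of base composition in these shares was not tested. Windows of 1 gene can overlap, and a match is a string of letters, not a shown binding site.

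The 5 members with the CLEAR core are shown because they span the lysosome, the proton pump and the conjugation system. Capitals mark CACGTG and TCACGTGA, positions are counted from the transcript start, and each is written 5′ to 3′ on the strand of the gene. The stretches run from -75 to 15, and from -200 for LAMP1, which holds 6 E-boxes. They are ATG3 (chr3:112561948-112562037, minus strand), ATP6V0D1 (chr16:67481143-67481232, minus), ATP6V1G1 (chr9:114587694-114587783, plus), CTSA (chr20:45891260-45891349, plus) and LAMP1 (chr13:113297039-113297253, plus).
ATG3: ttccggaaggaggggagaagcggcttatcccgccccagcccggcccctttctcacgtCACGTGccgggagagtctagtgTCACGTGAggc
ATP6V0D1: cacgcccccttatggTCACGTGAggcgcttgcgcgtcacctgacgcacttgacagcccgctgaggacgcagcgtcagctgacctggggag
ATP6V1G1: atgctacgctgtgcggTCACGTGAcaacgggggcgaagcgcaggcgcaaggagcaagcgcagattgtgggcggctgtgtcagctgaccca
CTSA: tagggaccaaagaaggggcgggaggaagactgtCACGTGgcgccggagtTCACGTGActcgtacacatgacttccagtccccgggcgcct
LAMP1: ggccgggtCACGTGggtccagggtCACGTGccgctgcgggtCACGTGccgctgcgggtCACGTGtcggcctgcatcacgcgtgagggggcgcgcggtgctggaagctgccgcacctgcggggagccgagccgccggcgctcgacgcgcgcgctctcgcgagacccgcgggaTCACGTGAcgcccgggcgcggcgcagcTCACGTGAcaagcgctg

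Of these 5 genes, LAMP1 was higher on the siYY1 array and the other 4 were lower. The median of the 5 was -0.39, and that of the 39 members compared with a window but no core was -0.07. Over all genes compared, the 185 with the core had a median of -0.19 and the 7201 without it a median of -0.01. For any E-box, which takes in the genes with the core, the gap was smaller. Over all genes compared it was -0.05 for the 974 genes with it and -0.015 for the 6412 without. Among members compared the medians were -0.22 for the 10 with an E-box and -0.05 for the 34 without. The member medians rest on 5 genes with the core and 10 with an E-box. None of these gaps was tested, and neither was the part of base composition in them.

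The YY1 motif was searched on both strands as AAGATGGCG and as its inner part ATGGCG. The longer form was found in 1.47% of member windows and 1.75% of all windows, and the only member was ATG12. The inner part was found in 19.1% of member windows and 10.7% of all windows. It overlaps the longer form and begins with ATG, and whether it coincides with a start codon was not tested. Of the 5 members past 2-fold, ATG13 held it after its start and SQSTM1 in 1 of its windows. ATP6V1C2, CTSV and ATG2A had no match in their windows. The stretches with these letters in capitals are given for ATG12 (chr5:115841536-115841585, minus strand, -20 to 30), for ATG14 (chr14:55411811-55411860, minus, -30 to 20) and for ATG13 (chr11:46617569-46617598, plus, 17 to 46), which lie on both sides of 0.
ATG12: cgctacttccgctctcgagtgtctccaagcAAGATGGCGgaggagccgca
ATG14: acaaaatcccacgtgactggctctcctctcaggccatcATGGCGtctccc
ATG13: gatgaaaacaaacactaacgATGGCGgcgc

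Among members compared, the 11 with ATGGCG had a median of 0.39, and the 33 with a window but no match a median of -0.25. Of the 11, 8 were above 0, beside 49.5% of all genes compared. Over all genes compared the order of the medians was the other way, at -0.07 for the 1750 genes with ATGGCG and -0.00 for the 5636 without. The member median rests on 11 genes. None of these gaps was tested, and neither was the part of base composition in them. The members with these letters were ATG4B, ATG5, ATG12, ATG13, ATG14, SQSTM1, GABARAP, GABARAPL2, MAP1LC3B, ATP6V0C and ATP6AP1, and the dim ATG16L2 and CTSF. They therefore included 3 of the 4 ATG8 genes compared, and whether these letters bear on the differences was not tested.

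Both lysosome-associated membrane proteins, which line the inner face of the lysosomal membrane, were higher by similar amounts on the siYY1 array. LAMP1 was at 11.24 and 11.82, a difference of 0.57, and LAMP2 at 11.54 and 12.09, a difference of 0.54. The cathepsins compared were mostly lower, with 7 of 8 below 0 and a median of -0.29. Of all 8747 genes compared, 4412 were below 0. The lower sign held under every scaling for 6 cathepsins, and not for CTSZ under loess. As deposited and with median centring, all genes compared also shifted lower, to medians of -0.13 and -0.20. Those scalings are thus a weak check on a lower sign. Without a brightness minimum the median of all 15 cathepsins was -0.03, since 5 of the 7 dim ones were above 0. CTSV, a cysteine cathepsin closely related to CTSL, was 2.11-fold lower at 9.90 and 8.82, a difference of -1.07. As deposited, its values were 9.97 and 8.77. CTSC, a dipeptidyl peptidase that activates serine proteases, was at 11.42 and 10.65, a difference of -0.77. CTSA, a carboxypeptidase that also protects lysosomal glycosidases, was at 13.77 and 13.20, a difference of -0.57.

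The other cathepsins compared lay closer to 0. The cysteine protease CTSB was at 13.80 and 13.46, a difference of -0.34, and the aminopeptidase CTSH at 10.31 and 10.07, a difference of -0.25. The aspartic protease CTSD was at 14.93 and 14.75, a difference of -0.17. CTSZ was at 10.68 and 10.65, which is -0.03, and this sign changed with loess scaling. CTSL was the only one above 0, at 11.34 and 11.75, a difference of 0.41, so it and its relative CTSV lay on opposite sides. The remaining 7 cathepsins, CTSE, CTSF, CTSG, CTSK, CTSO, CTSS and CTSW, were below the brightness minimum. Their differences ran from -0.69 for CTSO, at 6.54 and 5.86, to 0.54 for CTSK. CTSS, CTSW and CTSG are known from leukocytes and CTSK from osteoclasts.

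Vacuolar ATPase members were mostly lower on the siYY1 array: 13 of 18 compared, with a median of -0.24 and 1 past 2-fold. Of all 8747 genes compared, 4412 were below 0, and whether the pump genes differ from them was not tested. Without the accessory proteins, 11 of 16 subunits of the V0 and V1 sectors were lower, with a median of -0.22. ATP6V1C2, a tissue-restricted form of the C subunit that links the V1 and V0 sectors, had the largest difference of all members. Its value was 11.37 on the siControl array and 9.54 on the siYY1 array (11.44 and 9.48 as deposited), a difference of -1.83. This is 3.56-fold lower and the 102nd lowest of the 8747 genes compared. The widely expressed form ATP6V1C1 was also lower, at 10.92 and 9.96, a difference of -0.96 that was just short of 2-fold. Both genes for the C subunit were thus among the 4 lowest V1 values compared, with ATP6V1D, a subunit of the central rotor, at 10.58 and 9.85 (-0.73) and ATP6V1G1 of the peripheral stalk at 13.10 and 12.71 (-0.39).

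The rest of the V1 sector held 3 lower and 3 higher subunits. The catalytic subunit ATP6V1A was at 11.38 and 11.21, a difference of -0.17, and its nucleotide-binding partner ATP6V1B2 at 11.83 and 11.59, a difference of -0.24. The regulatory subunit ATP6V1H differed by -0.09. Higher were ATP6V1E1 of the peripheral stalk, at 11.23 and 11.93, a difference of 0.70, and the rotor subunit ATP6V1F, at 0.31. ATP6V1G3 was at 7.35 and 7.80 (0.45), so it passed the brightness minimum only on the siYY1 array. The dim forms ATP6V1B1 and ATP6V1G2 differed by 0.27 and -0.61. ATP6V1E2 had no named probe set and was not analysed here. ATP6V1E1 and ATP6V1G1, which form the same stalk, were on opposite sides of 0.

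In the V0 sector 4 of 6 members were lower and none was past 2-fold. TCIRG1, another form of the large membrane subunit that the symbol rule does not take, was higher, at 10.89 and 11.84 (0.95, or 1.93-fold), and was in the list of other pump genes. ATP6V0E2 was at 8.53 and 7.89, a difference of -0.64, while the other form of this small subunit, ATP6V0E1, was at 14.40 and 14.71, a difference of 0.32. ATP6V0A2, a form of the large membrane subunit found in the Golgi and endosomes, was at 10.16 and 9.57, a difference of -0.60. ATP6V0B and ATP6V0C, which build the proton-carrying ring, were at -0.24 and 0.43. ATP6V0D1, which couples the ring to the rotor, was at 14.08 and 13.89, a difference of -0.19. ATP6V0D2 was dim, at -0.10, and ATP6V0A1 and ATP6V0A4 were not analysed here. The accessory proteins ATP6AP1 and ATP6AP2, which assist assembly, were at -0.31 and -0.33. ATP6AP1L was not analysed here.

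**Figure D3:**
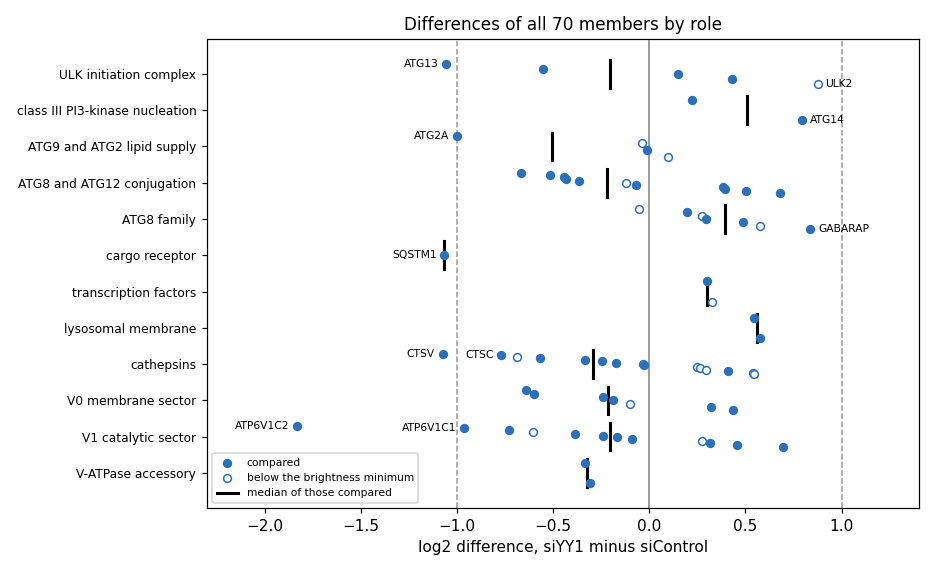
Log2 difference, siYY1 minus siControl (x axis), of all 70 members by role (y axis); filled points were compared, open points were below the brightness minimum, bars are medians of the filled points and dashed lines mark 2-fold. The 5 filled points at or past the lower dashed line are ATP6V1C2, CTSV, SQSTM1, ATG13 and ATG2A.

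The 18 members below the brightness minimum ranged from -0.69 for CTSO to 0.88 for ULK2, with a median of 0.26. None was 2-fold different after quantile normalization, where 3.06% of the 8498 dim protein-coding genes were. Dim values hold a larger part of background signal, and no measure of background came with the values used here. The 20 genes on the array with more than 1 probe set, taken without the brightness minimum, had differences a median of 0.38 apart between their probe sets. This distance compares probe sets on the same pair of arrays and does not measure the spread between cultures. Each member had 1 probe set, so the distance could not be measured for them.

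Other genes of the pathway were taken from 10 lists with 182 genes, of which 137 were compared. In siYY1, 15 of them (10.9%) were 2-fold or more higher and 10 (7.30%) were 2-fold or more lower, beside the 7.92% and 9.37% of all genes compared. Their median was 0.07 and their SD 0.74. The order of these counts turned with the scaling, but the background moved too. As deposited 13 (9.49%) were higher and 15 (10.9%) lower, beside 6.13% and 12.2% of all genes compared. With median centring they were 10 (7.3%) and 15 (10.9%), beside 5.04% and 14.2%. With loess they were 14 (10.2%) and 12 (8.76%), beside 7.61% and 9.51%. In each scaling the higher share was above the background and the lower share below it, and this was not tested. Of the 15 higher genes, RPTOR, RRAGB and FOXO1 reached the brightness minimum only on the siYY1 array, and of the 10 lower, LAPTM4B only on the siControl array, so each passed through the array where it was high. The nutrient sensing complex mTORC1, which restrains ULK1 and TFEB at the lysosome, and its regulators gave 5 of 30 genes at least 2-fold higher and none lower in this scaling. The lysosomal GATOR subunit NPRL3 was at 9.97 and 11.40 (1.42), the AMPK activator STK11 at 10.06 and 11.33 (1.27), the mTORC1 subunit RPTOR at 6.50 and 7.73 (1.24) and the kinase MTOR at 9.89 and 10.91 (1.03). The fifth was RRAGB, a GTPase that recruits mTORC1, at 6.91 and 7.92 (1.003). MTOR was at 0.89 in the values as deposited, short of 2-fold, and RRAGB at 0.94 with loess. Just short on the lower side were DEPDC5, a GATOR1 subunit, at -0.98, and PRKAA1, a catalytic subunit of AMPK, at -0.92. As deposited they were at -1.02 and -1.07, so the counts became 4 higher and 2 lower there, 3 and 2 with median centring and 4 and 1 with loess. The median of this list was 0.14. The list mixes the complex with its regulators, so these counts give no direction for mTORC1 activity, which was not tested.

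Genes that deliver enzymes to lysosomes had 6 of 13 past 2-fold, in both directions. Of the 13, 2 were higher and 4 lower, beside 7.92% and 9.37% of all genes compared. The clathrin adaptors GGA1 and GGA2, which sort mannose 6-phosphate receptors at the Golgi, were lower, at -1.62 and -1.52. The adaptor subunit AP1G1 was at -1.35 and the retromer subunit VPS35 at -1.14. The receptor IGF2R itself was higher, at 9.33 and 10.77 (1.44), and the adaptor subunit AP3D1 was at 1.05, or 0.92 as deposited. The median of the list was -0.00.

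Other lysosomal membrane genes had 4 of 18 at least 2-fold higher, beside 7.92% of all genes compared. They were LAPTM4A at 1.31, the tetraspanin CD63 at 1.21 and the cholesterol exporter NPC1 at 1.17. The last was OSTM1, the partner of the chloride transporter CLCN7, at 1.14. With median centring NPC1 was at 0.97 and OSTM1 at 0.95. The only one past 2-fold lower was LAPTM4B, at 9.37 and 7.22, which was 4.46-fold lower at -2.16. Its close relative LAPTM4A was thus far on the other side. Among other lysosomal enzymes and activators, 3 of 25 were at least 2-fold lower and none higher, beside 9.37% and 7.92% of all genes compared. As deposited 4 were lower, with GALC at -1.0004. The 3 were the peptidase TPP1 at 11.71 and 10.34 (-1.37), the cysteine protease LGMN, which processes cathepsins, at -1.21, and the acid phosphatase ACP2 at -1.04. The median of that list was -0.12.

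**Figure D4:**
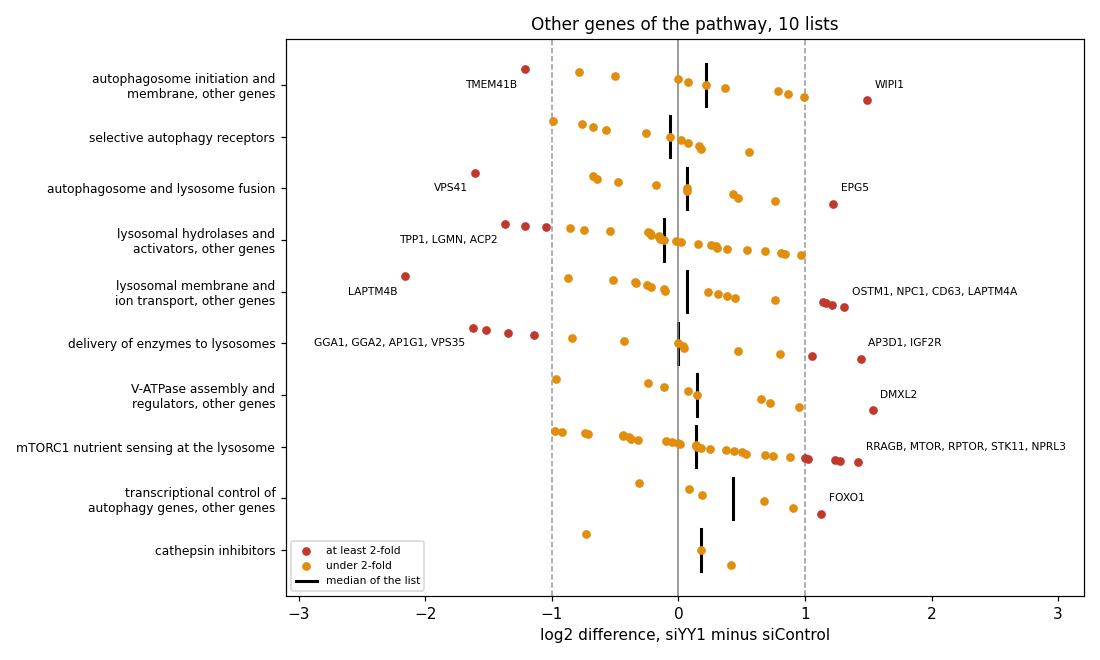
Log2 difference, siYY1 minus siControl (x axis), of the 137 other pathway genes compared, in 10 lists (y axis); dark points are at least 2-fold from 0 and are named, bars are list medians and dashed lines mark 2-fold. The mTORC1 list has 5 points past the upper line and none past the lower one in this scaling, against 4 and 2 in the values as deposited.

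The remaining lists held few genes past 2-fold, where 7.92% of all genes compared were higher and 9.37% lower. In autophagosome formation, WIPI1, which reads the lipid made by the class III PI3-kinase, was at 8.22 and 9.71 (1.49), and the lipid scramblase TMEM41B was at 12.68 and 11.47 (-1.21). Of the fusion genes, the HOPS tether subunit VPS41 was at -1.60 and the tether EPG5 at 1.22. DMXL2, a factor for vacuolar ATPase assembly, was the only one of 9 assembly and regulatory genes past 2-fold, at 8.29 and 9.83 (1.53), so it lay opposite to most subunits of the pump. VMA21, an assembly factor for the V0 sector, lay with them at 12.17 and 11.21 (-0.97, and -1.11 as deposited, past 2-fold). FOXO1, a transcription factor that acts on autophagy genes, was at 6.70 and 7.83 (1.13), with 1 of 6 in its list past 2-fold. None of 3 cathepsin inhibitors compared passed 2-fold, and their median was 0.18.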

How the data were processed

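RNA from 2 DLD-1 cultures was converted to biotin-labelled sense-strand cDNA and hybridised to a GeneChip array, as the labels' protocols state. The authors deposited a value for each probe set and array, taken here as log2 expression from its range of 2.51 to 17.9. No source used here states the software, background correction or normalization. The quartiles differed between the arrays by 0.18, 0.07 and -0.13, so the pair was quantile normalized. Gene symbols came from the platform annotation (17709 probe sets, each with 1 symbol) and were updated through the gene ID to RefSeq GRCh38.p14. Probe sets of a gene were averaged. With 1 array a group no test was made and genes were counted at 2-fold.

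The rule on symbols, the role groups and the pathway lists were chosen with earlier results of these data known, although the rule itself uses no value. Named were members past 1.5-fold, the extremes of each role group and of the dim members, the 3 members on either side of 2-fold, and up to 4 list genes past 2-fold in each direction. Other members were named to account for all 70, and list genes short of 2-fold to complete a complex or a count, after their values were seen. The computation was tested on simulated data. Python 3.11.15, numpy 2.4.6, pandas 2.3.3, statsmodels 0.14.6 and matplotlib 3.10.9 were used.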

Additional observations from a re-analysis of the deposited data

How the results depend on the processing

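No member was at least 2-fold higher under any scaling, probe set or gene span setting tried among the 52 compared, and 4 were at a threshold of 1.5-fold. The count of lower members was 11 at 1.5-fold, 1 at 3-fold, and 3 with the brightness minimum at the 75th percentile, which left 31 members. It was also 3 with the gene span trend removed, an alternative chosen after seeing the data, and 5 or 6 under the other settings. The members' median was -0.31 in the values as deposited and -0.39 with arrays centred on their medians, where the median of all genes compared moved from -0.01 to -0.13 and -0.20. It was -0.036 without a brightness minimum. Among 28 named members, 3 of 140 recomputed differences changed sign, none of a member past 1.5-fold. This is a weak check, since most named members were chosen for differences far from 0. All 70 members had 1 probe set, so taking the brightest probe set could not change any value. Of 83 recomputed role group medians, 33 moved by 0.1 or more and 3 changed sign. The ULK complex was at 0.15 without a minimum, and with the 75th percentile minimum conjugation was at 0.38 and the V0 sector at 0.06. The planned correction for protein length was not run, since no protein table was used here. With 2 arrays, the precision of each value is unknown.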
